A study of Mus musculus with 4 samples.

Results

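The olfactory receptor gene clusters of mouse chromosomes 2 and 9 were examined for RING1B and H3K27me3 in forelimb buds. Their members were the tiled probes placed between 85200000 and 89900000 on chromosome 2, a span of 4.7 Mb on array design 1, and between 37700000 and 39800000 on chromosome 9, a span of 2.1 Mb on array design 2. Coordinates are those of the arrays, and the sources used here do not name their genome build. Position alone chose the members, which formed 321 of the 25006 tiled regions and 4061 of the 473642 mapped probes. The chromosome 2 cluster held 172 regions with 2123 probes, and the rest of chromosome 2 held 1757 regions with 36037 probes. The chromosome 9 cluster held 149 regions with 1938 probes, and the rest of chromosome 9 held 1069 regions with 21160 probes.

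The arrays compared precipitated with input chromatin from wild-type BDF1 embryos of stage E10.5, on 2-colour tiling arrays (ChIP-chip). Whole forelimb buds were fixed and pooled, and antibodies against RING1B and H3K27me3 were used, with no other genotype or treatment in the series. A pool of whole buds mixes mesenchyme, ectoderm and other cells, and the values are averages over them. The arrays numbered 1 and 2 shared 0 probe names and carried different chromosomes' clusters, so each cluster was measured on 1 array per antibody. There was thus no replicate for either antibody, and no p-value is given. Spreads below are between probes and leave out any variation from embryo to embryo or from one precipitation to the next.

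Olfactory receptor genes encode G protein-coupled receptors of olfactory sensory neurons, in which each mature neuron expresses a single receptor allele. They lie in long tandem arrays, are for the most part silent in other tissues, and in the olfactory neurons are packed in constitutive heterochromatin marked by H3K9me3 and H4K20me3. RING1B is a catalytic subunit of Polycomb repressive complex 1, which ubiquitylates histone H2A, and H3K27me3 is set by Polycomb repressive complex 2. In mammals both complexes gather mainly at CpG islands of developmental regulators, such as the Hox genes of the limb bud.

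Gene names and sequence came from RefSeq, GRCm38.p6, and were not joined to the array coordinates. In that gene order the longest run of receptor genes on chromosome 2 counted 293, of which 222 were protein-coding and 67 pseudogenes, between the coding genes Lrrc55 and Ptprj. Receptor genes made up 88.2% of the genes in this run, and the coding genes among the others were Fads2b, Pramel7 and Pramel6. The longest run on chromosome 9 counted 127 receptor genes, of which 95 were protein-coding and 28 pseudogenes, between Panx3 and Zfp202. Receptor genes were 88.2% of that run too, and its other coding genes were Vwa5a, AW551984 and Tmem225.

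The sequence upstream of these genes was poor in CpG, the dinucleotide in which CpG islands are rich. RefSeq gave 267 start windows for 265 receptor genes of both runs, and 182 of these windows (68.2%) began at the ATG of the coding sequence, where the true start of transcription is not shown. In the 85 windows that began before the coding sequence, the 250 bases upstream held a median of 1 CpG and a maximum of 5. Of these, 32 (37.6%) held 0 CpG and 0 held 10 or more, and the median GC content was 33.2%. In the 30674 windows of all other genes with a start not at an ATG, the median was 6 CpG, 6.27% held 0, 39.9% held 10 or more, and the median GC content was 52.8%. CG is its own reverse complement, so a count covers both strands, and 92.1% of all 32851 windows held at least 1.

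Windows at the extremes of these 85 are printed to show this composition, 5′ to 3′ on the strand of the gene, with each CG in capitals. Positions are those of GRCm38.p6, and whether these genes lie within the array limits of the clusters was not examined. Olfr1506 (chr2:90224472-90224721, minus strand, 46.8% GC) had 4 CpG, the most among the chromosome 2 windows that began before the coding sequence, together with Olfr1565, whose window is identical. Olfr1006 (chr2:85678742-85678991, minus strand, 29.6% GC) had 0. Olfr976 (chr9:39961045-39961294, minus strand, 48.4% GC) had 5, the most among such windows of chromosome 9. Olfr147 (chr9:38401461-38401710, plus strand, 36.4% GC) had 0. The other genes taken by the same rule were Olfr1015 with 0, Olfr875 with 3 and Olfr160 with 0 CpG.
Olfr1506: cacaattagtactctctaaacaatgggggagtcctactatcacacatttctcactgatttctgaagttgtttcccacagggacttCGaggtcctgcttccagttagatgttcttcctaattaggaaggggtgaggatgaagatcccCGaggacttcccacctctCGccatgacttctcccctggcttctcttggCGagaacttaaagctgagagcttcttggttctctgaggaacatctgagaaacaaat
Olfr1006: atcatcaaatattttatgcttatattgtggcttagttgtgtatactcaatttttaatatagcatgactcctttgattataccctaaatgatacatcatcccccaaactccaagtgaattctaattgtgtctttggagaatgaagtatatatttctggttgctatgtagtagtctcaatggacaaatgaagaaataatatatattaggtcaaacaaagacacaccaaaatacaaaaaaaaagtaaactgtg
Olfr976: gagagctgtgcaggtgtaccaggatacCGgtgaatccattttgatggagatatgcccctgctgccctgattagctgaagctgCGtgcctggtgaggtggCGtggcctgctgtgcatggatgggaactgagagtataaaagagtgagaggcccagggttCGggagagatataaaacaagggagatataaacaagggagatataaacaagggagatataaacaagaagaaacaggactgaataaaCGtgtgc
Olfr147: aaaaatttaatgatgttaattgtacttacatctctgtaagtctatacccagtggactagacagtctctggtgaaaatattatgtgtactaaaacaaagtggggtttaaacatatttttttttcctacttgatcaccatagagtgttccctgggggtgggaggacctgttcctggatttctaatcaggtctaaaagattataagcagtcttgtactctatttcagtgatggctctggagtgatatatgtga

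Values are log2 ratios of Cy5 over Cy3 after subtraction of each array's median. The labels give Cy3 to the precipitate and Cy5 to the input, so these signs run against the labels, and every sign below turns if the labelled dyes hold. Cy5 is the likely precipitate, because Cy3 was the more alike between the 2 antibodies, as a common input would be. Across probes kept on both arrays, Cy3 correlated with r = 0.966 in the chromosome 2 cluster and 0.890 in the chromosome 9 cluster, against 0.953 and 0.837 in the rest of each chromosome. Cy5 correlated with r = 0.58 and 0.46 in the clusters, against 0.72 and 0.73. Ratios of kept probes also reached further above 0 than below it on each array. The 5th and 95th percentiles for RING1B were -1.80 and 2.40 on design 1, then -1.83 and 2.72 on design 2. H3K27me3 had -2.12 and 4.44 on design 1, then -2.07 and 3.79 on design 2. The longer tail is thus the enriched side if Cy5 is the precipitate, and the depleted side if the labelled dyes hold. Which dye held the precipitate was not tested, and these values alone do not settle it. In the text "lower" and "higher" are of Cy5 over Cy3.

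Both clusters lay below the rest of their chromosome for both antibodies, and further below for H3K27me3, except on chromosome 9 with normexp background correction. For H3K27me3 in the chromosome 2 cluster, the median probe stood at -1.59, against 0.14 in the rest of the chromosome. The cluster's quartiles were -1.96 and -1.19, and those of the rest -0.93 and 1.48, so that the middle ranges did not overlap. The difference of medians was -1.74, a 3.33-fold lower ratio in the cluster. For H3K27me3 in the chromosome 9 cluster, the median was -1.32 (quartiles -1.70 and -0.86), against -0.025 (quartiles -0.87 and 0.84) in the rest. The difference was -1.30, or 2.46-fold lower.

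RING1B showed the same direction with more overlap. In the chromosome 2 cluster its median was -0.86 (quartiles -1.49 and -0.25), against 0.033 (quartiles -0.69 and 0.76) in the rest, a difference of -0.89 or 1.86-fold lower. In the chromosome 9 cluster its median was -0.71 (quartiles -1.35 and -0.071), against -0.0092 (quartiles -0.74 and 0.75), a difference of -0.70 or 1.62-fold lower. These middle ranges overlapped on both chromosomes. Spots of the same control probe on an array varied with a standard deviation of 0.137 to 0.155, below each of the 4 differences, although that spread covers the spotting and scanning only. Measured against the standard deviation of all kept probes of each array, the differences were -0.91 and -0.78 for H3K27me3, on chromosomes 2 and 9, and -0.67 and -0.50 for RING1B.

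The direction held under each background correction tried, while the size depended on it. With normexp correction, under which ratios were narrower in the rest of both chromosomes too, the differences on chromosomes 2 and 9 were -0.76 and -0.067 for H3K27me3 and -0.13 and -0.21 for RING1B. The values of -0.067 and -0.13 were smaller in size than the spread of control spots given above, which was not recomputed with normexp. On chromosome 9 the order of the antibodies turned with normexp, with H3K27me3 nearer to the rest than RING1B. With loess normalization within each array they were -1.06 and -0.53 for H3K27me3 and -0.64 and -0.42 for RING1B.

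**Figure D1:**
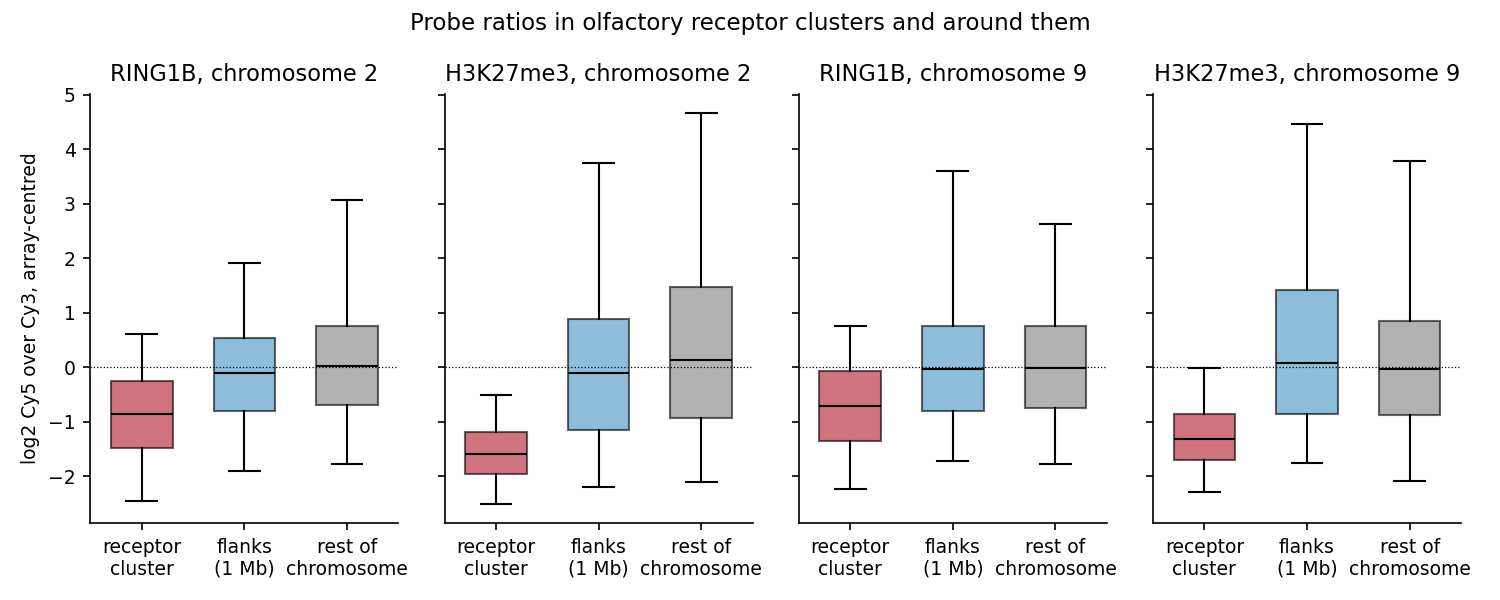
Centred log2 ratio of Cy5 over Cy3 of kept probes (vertical axis) for each antibody and chromosome. Boxes give the quartiles and the median, and whiskers the 5th and 95th percentiles, for the receptor cluster, the 1 Mb flanks on both sides and the rest of the chromosome. The cluster medians are -0.86, -1.59, -0.71 and -1.32 from left to right, and only the H3K27me3 box of chromosome 2 lies wholly under the box of the rest of the chromosome.

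By the standard deviation of kept probes the clusters were also narrower than their surroundings, and they held few high values. Many cluster probes were left out of these values as dim in Cy5. The standard deviation of H3K27me3 ratios was 0.70 and 0.74 in the clusters of chromosomes 2 and 9, against 2.00 and 1.67 in the rest. For RING1B it was 0.93 and 0.92 in the clusters, against 1.44 and 1.38. Scatter between neighbouring kept probes (SD of their differences over the square root of 2) was not lower for RING1B. It was 0.79 and 0.82 in the clusters, against 0.74 and 0.75 in the rest. For H3K27me3 that scatter was 0.50 and 0.54, against 0.65 and 0.67. Of the cluster probes, 97.95% and 94.96% lay below 0 for H3K27me3, against 46.6% and 50.9% in the rest, and 83.4% and 77.7% lay below 0 for RING1B, against 48.7% and 50.3%. The median cluster probe of H3K27me3 stood at percentile 12.1 and 15.3 of the rest of its chromosome, and that of RING1B at percentile 20.3 and 25.8. With loess these percentiles were 22.55 and 32.67 for H3K27me3, and 24.3 and 33.78 for RING1B. The share of H3K27me3 probes below 0 was then 90.06% and 77.41%. So most cluster probes were low for H3K27me3, but not lower than every other locus.

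Few cluster probes reached a centred log2 ratio of 1, which is a 2-fold higher Cy5 over Cy3. For RING1B they were 27 of 1431 (1.89%) on chromosome 2, against 18.5% in the rest of the chromosome and 16.9% on the whole array. On chromosome 9 they were 28 of 1191 (2.35%), against 18.7% in the rest and 18.7% on the array. For H3K27me3 they were 8 of 1368 (0.585%) on chromosome 2, against 30.7% in the rest and 27.3% on the array. On chromosome 9 they were 19 of 1151 (1.65%), against 22.9% and 24.3%. Each of the 4 shares was under the background share of its array.

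A log2 ratio of -1 or under, 2-fold lower and the enriched side if the labelled dyes hold, was frequent. For H3K27me3 it was met by 1141 probes (83.4%) of the chromosome 2 cluster, against 23.5% in the rest and 25.4% on the array. On chromosome 9 it was met by 778 probes (67.6%), against 21.9% in the rest and 22.2% on the array. For RING1B the counts were 623 (43.5%) in the chromosome 2 cluster, against 16.9% in the rest and 17.5% on the array, and 445 (37.4%) in the chromosome 9 cluster, against 18.1% and 18.3%. All 4 shares exceeded the array background.

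The low ratio came with low Cy5, and Cy3 differed less. Among kept probes, median log2 Cy5 for H3K27me3 was 8.81 in the chromosome 2 cluster, against 10.47 in the rest, and 8.66 in the chromosome 9 cluster, against 10.41. For RING1B it was 8.77 in the chromosome 2 cluster, against 9.74 in the rest, and 8.89 in the chromosome 9 cluster, against 9.86. Cluster minus rest was thus between -1.76 and -0.96 in Cy5, and between -0.28 and 0.13 in Cy3. Over all probes, with dim ones included, it was -1.39 and -1.499 in Cy5 for RING1B on chromosomes 2 and 9 and -1.82 and -1.96 for H3K27me3. In Cy3 it was then below 0 on every array, at -0.15 and -0.33 for RING1B and -0.15 and -0.59 for H3K27me3.

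Many cluster probes were too dim in Cy5 to be kept. The filter, which asks for a signal well above background in both dyes, kept 67.4% and 64.4% of the chromosome 2 cluster for RING1B and H3K27me3, against 87.0% and 86.7% of the rest. It kept 61.5% and 59.4% of the chromosome 9 cluster, against 86.6% and 84.9%. Probes dim in Cy5 but not in Cy3 made up 25.1% to 29.7% of the cluster probes per array, against 7.07% to 9.20% of the rest. Most of the cluster probes left out were thus dim in Cy5. With no such filter the RING1B differences were -1.15 on chromosome 2 and -1.09 on chromosome 9.

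Probe length also differed between the clusters and their surroundings. Probes of 60 bases, the longest on the arrays, were 1931 (91.0%) of the chromosome 2 cluster and 1698 (87.6%) of the chromosome 9 cluster, against 38.8% and 38.2% of the rest. Probes of 60 bases were lower outside the clusters too, with medians of -0.51 and -0.48 for H3K27me3 and -0.32 and -0.29 for RING1B on chromosomes 2 and 9. Compared at 60 bases only, an alternative chosen after the data were seen, the cluster differences were -1.11 and -0.91 for H3K27me3 and -0.55 and -0.42 for RING1B. The cluster was still lower at this length, by less than over all probes, and probe base composition was not analysed here. Among the fewer probes of under 55 bases (57 to 88 cluster probes per array) the differences were -1.69 and -0.83 for H3K27me3 and -0.99 and -0.88 for RING1B.

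The difference was also taken at like Cy3 brightness. Kept probes were ranked by Cy3 on the array of the other antibody, so that the ranking did not share noise with the ratio, and divided into 4 equal parts. From the dimmest part to the brightest, the H3K27me3 difference was -1.67, -1.59, -1.61 and -1.86 on chromosome 2, and -1.13, -1.24, -1.32 and -1.40 on chromosome 9. For RING1B it was -0.61, -0.80, -1.01 and -1.13 on chromosome 2, and -0.48, -0.62, -0.83 and -1.14 on chromosome 9. The cluster was lower in all 16 comparisons, which leave out the probes dim in either dye. The gap was wider in each brighter part for RING1B on both chromosomes and for H3K27me3 on chromosome 9.

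**Figure D2:**
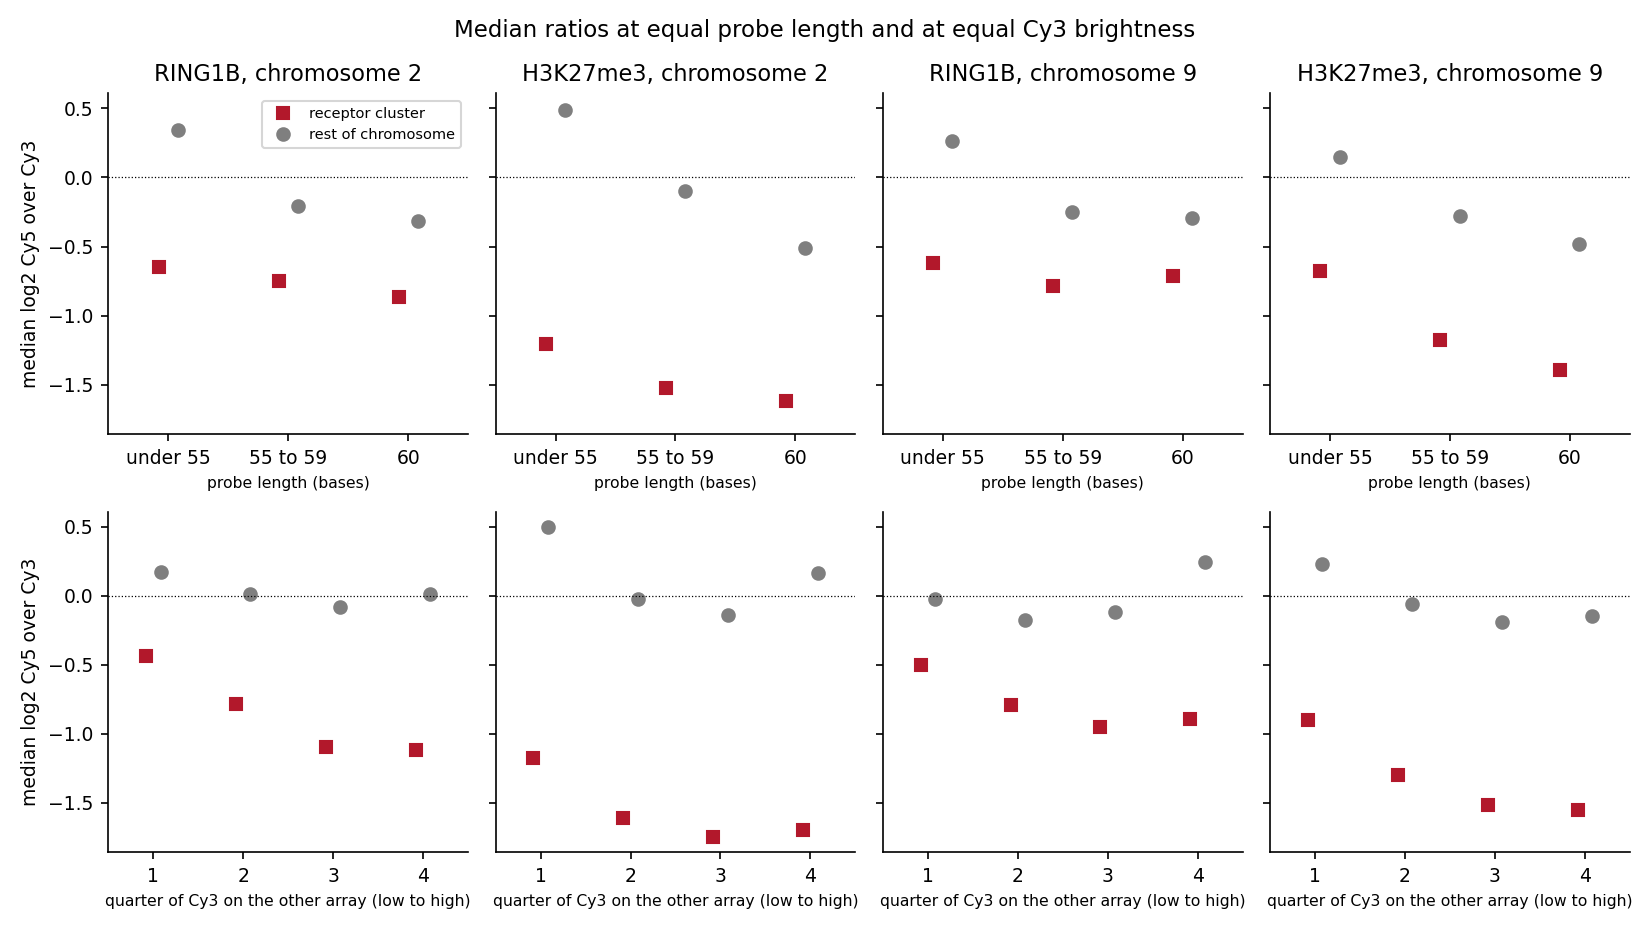
Median centred log2 ratio of Cy5 over Cy3 (vertical axis) of receptor cluster probes (squares) and of the rest of the chromosome (circles), by probe length in bases (upper row) and by Cy3 brightness on the other antibody's array in 4 equal parts (lower row). The square lies below the circle in every column, and at 60 bases the gap is -0.55, -1.11, -0.42 and -0.91 from the left panel to the right.

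Along the chromosome, the clusters formed blocks of low bins. Medians were taken in bins of 500 kb with at least 20 kept probes. Chromosome 2 had 10 bins with kept probes of the cluster alone, between -1.88 and -1.21 for H3K27me3 and between -1.26 and -0.66 for RING1B. Of these, 9 were among the 20 lowest of 264 bins for H3K27me3 and 8 among the 20 lowest of 265 for RING1B. Chromosome 9 had 3 such bins, at ranks 2 to 8 from the lowest of 156 for H3K27me3 (-1.45 to -1.19) and at ranks 6 to 12 of 154 for RING1B (-0.77 to -0.52). Bins as low were present elsewhere: at or under the highest cluster bin lay 19 other bins of chromosome 2 for H3K27me3 and 15 for RING1B, and 5 and 7 of chromosome 9. Whether any of these other bins hold receptor genes was not examined.

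The lowest bin of chromosome 2 lay in the cluster for both antibodies. For H3K27me3 it ran from 89000001 to 89500000 (-1.88, 25 kept probes), just below a bin outside that ran from 72500001 to 73000000 (-1.87, 34 kept probes). For RING1B it ran from 85000001 to 85500000 (-1.26, 45 kept probes), where the H3K27me3 median was the highest of the 10 at -1.21. In this 1 bin the antibodies stood at opposite ends of the cluster's bins, with no replicate. The order of the other bins was not compared.

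**Figure D3:**
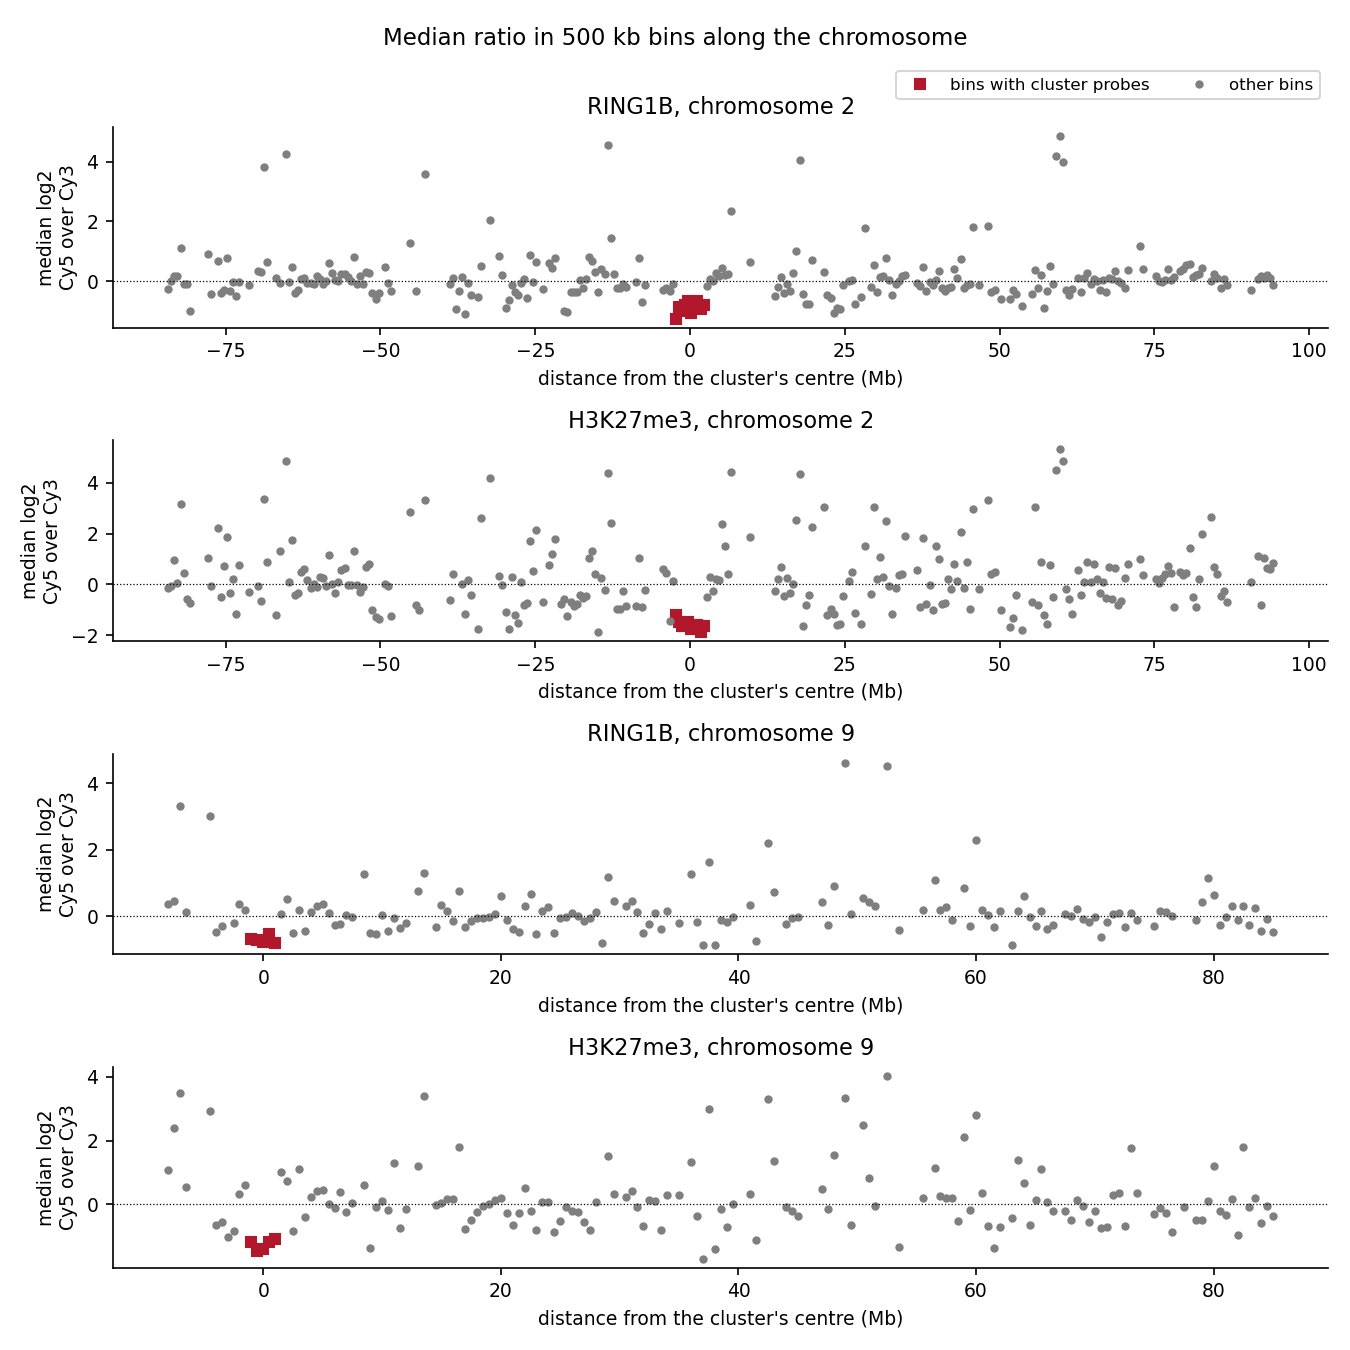
Median centred log2 ratio of Cy5 over Cy3 (vertical axis) in 500 kb bins with at least 20 kept probes, by distance in Mb from the centre of the receptor cluster (horizontal axis). Squares are bins that hold cluster probes and circles are all other bins of the chromosome. The squares form a block near the floor of each panel, and other low bins are scattered along both chromosomes.

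Low values ran past the set limits on the sides where probes were present. In the first 250 kb beyond the right limit of the chromosome 2 cluster the H3K27me3 median was -1.38 (26 kept probes), and in the next 250 kb it was 1.53 (31 kept probes). RING1B there was -0.93 and then 0.48. To the left of that cluster the first 250 kb had no kept probe, and the next 250 kb had medians of 0.024 for H3K27me3 and -0.26 for RING1B. To the left of the chromosome 9 cluster the H3K27me3 medians were -1.13 and then 0.65, and those of RING1B -0.60 and then 0.21. To its right they were -0.71 and then 1.46 for H3K27me3, and -0.46 and then 0.016 for RING1B. Further out on chromosome 2, low medians came back: H3K27me3 had -0.87 at 750 to 1000 kb on the left (21 kept probes) and -0.78 at 500 to 750 kb on the right (83 kept probes), and RING1B had -0.56 at 750 to 1000 kb on the left (25 kept probes). Low bins beside the clusters were therefore not limited to the clusters and their first 250 kb.

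Over their full length, the flanks of 1 Mb on each side resembled the chromosome more than the cluster. Their medians on chromosome 2 were -0.10 for H3K27me3 and -0.10 for RING1B, and on chromosome 9 they were 0.086 and -0.026. Set against the flanks in place of the chromosome, the H3K27me3 differences were -1.49 and -1.41 and the RING1B differences -0.76 and -0.68 on chromosomes 2 and 9.

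The tiled regions of the clusters were short and held few probes. A tiled region is a stretch in which each probe starts within 1000 bp of the one before. Its median length was 1532 bp in the chromosome 2 cluster and 2129 bp in the chromosome 9 cluster, against 4409 bp and 3968 bp in the rest, with a median of 6 and 9 probes, against 19 and 18. Spacing within regions was alike, with a median of 180 bp and 174 bp between probe starts in the clusters, against 181 bp and 179 bp in the rest. Cluster regions ranged from 1 to 79 probes on chromosome 2 and from 1 to 56 on chromosome 9. At least 3 kept probes, needed for a window value, were present in 100 and 99 of the 172 regions of chromosome 2 for RING1B and H3K27me3, and in 104 of the 149 regions of chromosome 9 for each. No probe was kept in 18 and 17 regions of chromosome 2 and in 9 and 7 of chromosome 9.

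Nearly every region with 3 or more kept probes had a mean below 0. For H3K27me3 these were 98 of 99 on chromosome 2 and 103 of 104 on chromosome 9, against 59.2% and 66.3% of regions in the rest. For RING1B they were 98 of 100 and 101 of 104, against 62.2% and 63.6%. The median of region means was -1.57 and -1.30 for H3K27me3, against -0.32 and -0.43, and -0.88 and -0.74 for RING1B, against -0.16 and -0.16. Both antibodies had means below 0 in 94 of 96 regions of chromosome 2 and in 97 of 99 of chromosome 9, against 46.6% and 52.8% in the rest.

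**Figure D4:**
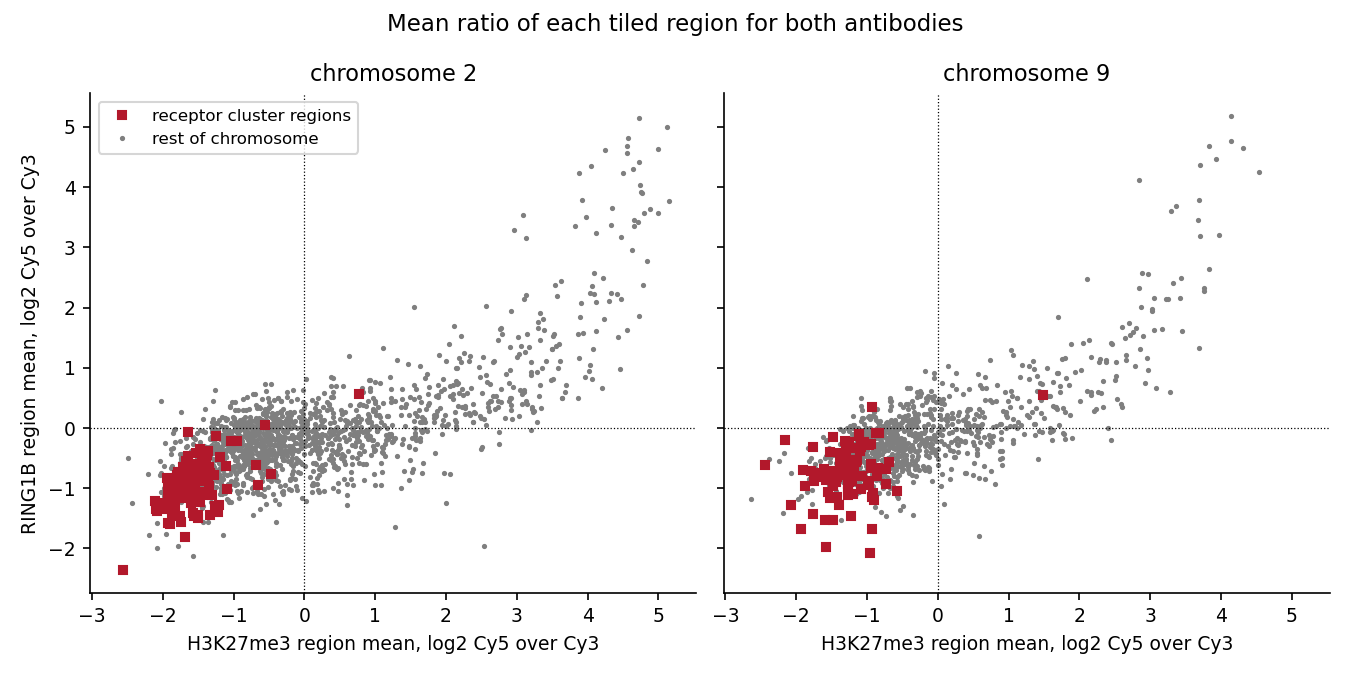
Mean centred log2 ratio of Cy5 over Cy3 of each tiled region with at least 3 kept probes for both antibodies, H3K27me3 on the horizontal axis and RING1B on the vertical axis. Squares are the 96 and 99 regions of the receptor clusters and dots the other regions of the same chromosome. Apart from 1 square per panel in the upper right, at 0.77 and 0.57 on chromosome 2 and at 1.48 and 0.55 on chromosome 9, the squares sit at negative H3K27me3 values.

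High windows were rare, and low windows were frequent. A top window is the highest mean of 3 neighbouring kept probes in a region. It was over each array's threshold, 2.7 for RING1B on both arrays, 2.85 for H3K27me3 on design 1 and 2.9 on design 2, in 0 of 100 and 0 of 104 cluster regions for RING1B. On the whole arrays that share was 6.59% and 7.85%, and in the rest of the chromosome 8.18% and 7.36%. For H3K27me3 it was 1 of 99 on chromosome 2, against 19.6% in the rest and 16.5% on the array, and 0 of 104 on chromosome 9, against 15.2% and 14.1%. Fewer probes give a region fewer chances of a high window, so regions with at least 10 kept probes were also counted. A top window of 2-fold or more was then seen in 1 of 62 and 1 of 53 cluster regions for RING1B, against 46.7% and 52.7% in the rest and 45.6% and 49.1% on the arrays. For H3K27me3 it was seen in 1 of 58 and 1 of 46, against 41.7% and 36.9% in the rest and 39.9% and 37.9% on the arrays.

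The low window, the lowest mean of 3 neighbouring kept probes, is the enriched side if the labelled dyes hold. It was at least 2-fold lower in 84 of 100 cluster regions of chromosome 2 for RING1B (84.0%), against 53.3% in the rest and 52.2% on the array, and in 72 of 104 of chromosome 9 (69.2%), against 54.3% and 55.2%. For H3K27me3 it was so in 96 of 99 (97.0%) on chromosome 2, against 54.6% and 54.8%, and in 98 of 104 (94.2%) on chromosome 9, against 53.5% and 52.6%. These shares exceeded the background of their arrays. Under the negative of the threshold lay 1 cluster region, for RING1B on chromosome 2, and 0 for RING1B on chromosome 9 and for H3K27me3 on both, where the shares on the arrays were 0.283% and 0.35% (RING1B) and 0.756% and 0.511% (H3K27me3).

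The exception on chromosome 2 was a single region of 8.69 kb from 87324043 to 87332732, which had the highest top window of its cluster for both antibodies. All of its 29 probes were 60 bases long. H3K27me3 had a top window of 3.84 ± 0.43 (SD over 3 probes) with 19 kept probes between -2.18 and 4.25, and it was the region over the array's threshold. Its 8 probes at 2-fold or more lay together between 87325342 and 87328133, while 5 probes were at least 2-fold lower. RING1B had a top window of 2.41 ± 0.37 with 17 kept probes between -1.06 and 2.77, and 5 of them, between 87326079 and 87330112, were at 2-fold or more. Both antibodies had their highest probes left of the region's centre. To the right of it RING1B had 1 further probe at 1.61, and H3K27me3 lay between 0.025 and 0.55 over the next 4 probes and between -2.18 and -0.65 at the far end.

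The exception on chromosome 9 ran over 4.45 kb from 39351862 to 39356309, again with the highest top window of its cluster for both antibodies, and 16 of its 25 probes were 60 bases long. H3K27me3 had a top window of 2.25 ± 0.057 and a mean of 1.48, with all 25 probes kept between -0.33 and 2.32. At 2-fold or more were 19 of them, and 1 was below 0. RING1B had a top window of 1.83 ± 0.30 and a mean of 0.55, with 24 kept probes between -0.80 and 2.13, of which 8 were at 2-fold or more. H3K27me3 was high along most of the region, and the 8 RING1B probes at 2-fold or more lay between 39353738 and 39355528. No gene was assigned to either region, because no annotation in the arrays' coordinates was used here.

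**Figure D5:**
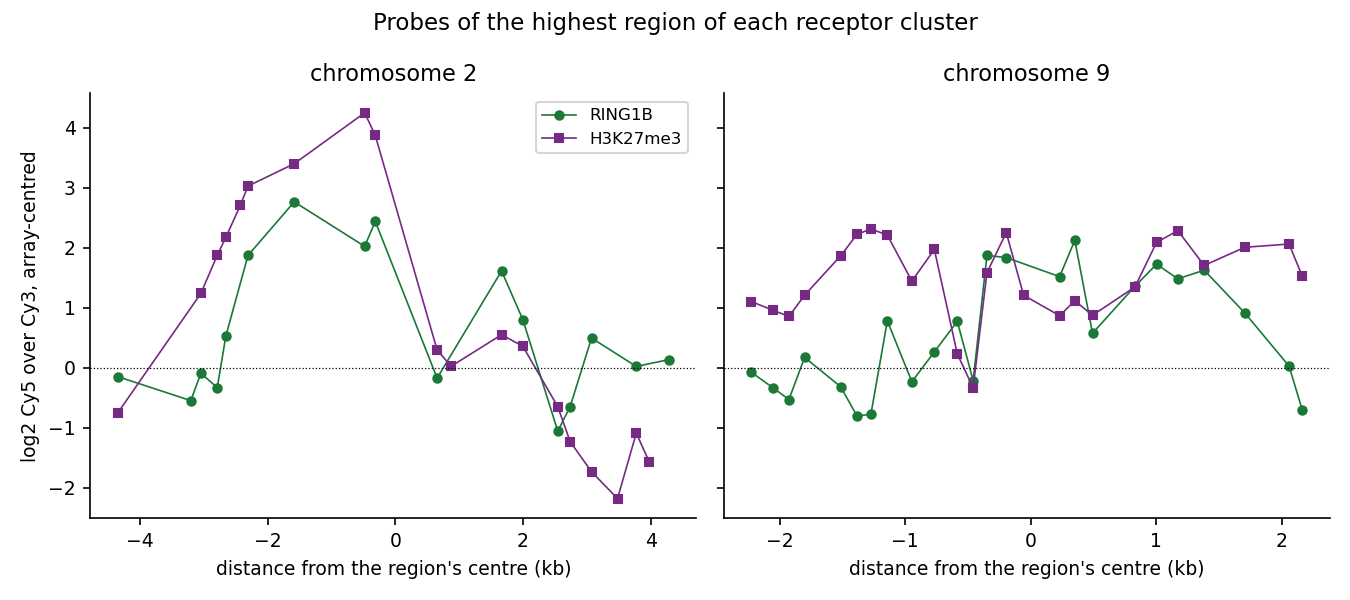
Centred log2 ratio of Cy5 over Cy3 of each kept probe (vertical axis) by distance in kb from the centre of the highest region of each receptor cluster (horizontal axis), for RING1B (circles) and H3K27me3 (squares). On chromosome 2 both antibodies peak left of the centre, at 2.77 and 4.25. On chromosome 9 H3K27me3 is spread over the region, while RING1B probes at 2-fold or more lie between -0.35 and 1.38 kb from the centre.

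Other cluster regions had lower windows. The next highest for RING1B on chromosome 2 had top windows of 0.98 ± 0.27 (87254303 to 87260466) and 0.90 ± 0.24 (86093367 to 86096441), where H3K27me3 reached -1.15 and -0.38. For H3K27me3 the next were 0.39 ± 0.69 (88648973 to 88653076) and -0.15 ± 0.32 (87296263 to 87298573). The last of these was near the exception, and its RING1B mean was 0.053. On chromosome 9 the next for RING1B were 0.66 ± 0.51 (38097649 to 38099739) and 0.57 ± 0.53 (39393590 to 39397465), and for H3K27me3 0.012 ± 0.19 (39655246 to 39662727) and -0.069 ± 0.50 (38149919 to 38155334). None of these 8 reached 2-fold. Among regions with only 1 or 2 kept probes, which have no window, RING1B means reached 2-fold in 2: 1.83 ± 0.30 (SD over 2 probes) from 87597832 to 87598081 on chromosome 2, and 1.01 ± 0.72 from 38896125 to 38896685 on chromosome 9. H3K27me3 means there were -1.21 and -1.57.

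At the low end, H3K27me3 windows reached -2.78 ± 0.46 (86607841 to 86613235) and -2.72 ± 0.19 (87693146 to 87699409) on chromosome 2. On chromosome 9 they reached -2.50 ± 0.60 (38601673 to 38605589) and -2.44 ± 0.43 (38284165 to 38285068). RING1B windows reached -2.91 ± 0.46 (85389866 to 85393440) and -2.50 ± 0.12 (89727771 to 89732850) on chromosome 2, and -2.68 ± 0.59 (37929136 to 37932895) and -2.58 ± 0.57 (38353482 to 38359472) on chromosome 9. In neither cluster did the 2 lowest regions of one antibody include any of the 2 lowest of the other. These were 2 picks out of 99 to 104 regions per cluster and antibody, where unrelated picks would seldom overlap. Nothing about the antibodies is drawn from it.

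The high end of the same chromosomes gives the scale. Outside the cluster of chromosome 2 the highest RING1B window was 7.02 ± 0.34, from 74457946 to 74485669, where H3K27me3 reached 6.28 ± 0.31. The highest H3K27me3 window there was 6.47 ± 0.36, from 145908065 to 145916007. On chromosome 9 the same region, from 74630294 to 74637522, led for both antibodies, at 6.83 ± 0.32 (RING1B) and 5.50 ± 0.19 (H3K27me3). The exceptions in the clusters stood well under these on a log2 scale.

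Inside the clusters the antibodies followed each other less closely than outside. Across the 1121 probes kept on both arrays in the chromosome 2 cluster, ratios correlated with r = 0.43 (Spearman 0.38), against r = 0.69 (Spearman 0.59) in the rest of the chromosome. Across 905 probes of the chromosome 9 cluster it was r = 0.35 (Spearman 0.30), against r = 0.67 (Spearman 0.56). These probes share arrays and positions, so the values describe the arrays and carry no test, and a narrower range of values lowers a correlation by itself. Neighbouring probes within 250 bp correlated with r = 0.55 and 0.60 for H3K27me3 in the clusters, against 0.91 and 0.86, and with r = 0.37 and 0.31 for RING1B, against 0.78 and 0.76. Probes at 2-fold or more for both antibodies were 4 (0.357%) in the chromosome 2 cluster, against 15.0% in the rest, and 7 (0.773%) in the chromosome 9 cluster, against 12.8%.

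RING1B ratios were less low than H3K27me3 ratios within the clusters. The median of RING1B minus H3K27me3 over shared probes was 0.59 on chromosome 2 and 0.41 on chromosome 9 in the clusters, against -0.12 and 0.090 in the rest. The arrays of the 2 antibodies have different ranges, with a standard deviation over all kept probes of 1.33 and 1.41 for RING1B and of 1.91 and 1.68 for H3K27me3, so the size of this gap depends on the scale of each array.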

How the data were processed

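Chromatin from E10.5 forelimb buds, precipitated with RING1B or H3K27me3 antibodies, and input DNA were measured on 4 arrays of 2 designs. Per the labels' protocols, fixation of the pooled buds used 1% formaldehyde (20 min), and DNA was amplified in 2 rounds with T7 RNA polymerase. Per the file headers, the authors extracted scans with Agilent Feature Extraction 10.1.1.1. Per the file headers, processed signals are linear intensity values, already background-subtracted and dye-normalized. The deposited scanner ratios are log10 values of Cy5 over Cy3, and the authors' value tables are log2 values. Between 99.7% and 99.9% of these lay within 0.001 of the scanner ratio. No source used here names the genome build.

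The log2 ratio of processed signals was centred on the median of kept probes, with no loess. Control spots, outlier spots, probes without a position and probes dim in either dye (not flagged as well above background) were left out, which kept 196983 to 203495 probes per array. The number of arrays limits the precision. Each array's threshold was raised by 0.05 until the low windows beyond its negative numbered at most 5 for every 100 top windows beyond it. The rule for regions named 3 with the highest top window and 2 with the lowest window per cluster and antibody, regions over threshold and the highest outside. For promoters it named the 2 genes with most and the 2 with fewest CpG per chromosome, taken among windows that begin before the coding sequence. The clusters, lists and rules were chosen with earlier results of these data known. Tests were not made, since each locus had 1 array per antibody. Alternatives covered normexp with an offset of 50 on median signals, loess, the value table, the dim-probe filter, Cy3 brightness, fold thresholds, reference sets, probe length and region means. Calculations used Python 3.11.15, numpy 2.4.6, pandas 2.3.3, R 4.3.3 and limma 3.58.1. The window and threshold steps were tested on simulated data with evenly spaced probes, all kept, and independent noise. Uneven regions, dropped dim probes and correlated neighbours, as in the clusters, were not simulated.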

Additional observations from a re-analysis of the deposited data

How the results depend on the processing

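All 48 alternative values of the 4 median differences (cluster minus rest of chromosome) were below 0. Of these, 26 moved by more than the spread used to judge them, that between spots of the same control probe. In the order RING1B and H3K27me3 on chromosome 2, then RING1B and H3K27me3 on chromosome 9, normexp gave -0.13, -0.76, -0.21 and -0.067, and loess gave -0.64, -1.06, -0.42 and -0.53. Normexp also compressed the ratios, with interquartile ranges in the rest of 0.36, 1.43, 0.66 and 0.22, against 1.45, 2.42, 1.49 and 1.71, and put the cluster medians at percentiles 24.97, 12.9, 25.2 and 26.9 of the rest. Loess put them at percentiles 24.3, 22.55, 33.78 and 32.67. With 60-base probes only, chosen after seeing the data, the differences were -0.55, -1.11, -0.42 and -0.91. For RING1B, on chromosomes 2 and 9, no filter on dim probes gave -1.15 and -1.09, a signal above background in at least 1 dye gave -1.17 and -1.11, probes above the Cy3 median of the other array gave -1.07 and -1.01, and those below it -0.70 and -0.51. Region means gave -0.72 for RING1B on chromosome 2, and -1.25 and -0.87 for H3K27me3 on chromosomes 2 and 9. For H3K27me3 the flanks gave -1.49 on chromosome 2, and the rest without regions over threshold, also added later, gave -1.17 and -0.97.

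The share of cluster probes over 2-fold moved in 10 of 28 values, where moved means outside a binomial interval around the main share. That interval treats the probes of 1 array as independent, which they are not, so it serves as a yardstick only. A lower fold cut-off can only raise the share, and a higher one can only reduce it. For RING1B it was 0.14% with normexp, 3.84% with loess, 5.38% at 1.5-fold and 0.699% at 3-fold on chromosome 2, and 0.504%, 5.21%, 7.81% and 0.504% on chromosome 9. For H3K27me3 on chromosome 9 it was 0.0869% with normexp and 3.30% with loess. Regions over threshold with normexp were 1 for RING1B on chromosome 2, 1 for RING1B on chromosome 9 and 1 for H3K27me3 on chromosome 9, and with loess they were 0 for H3K27me3 on chromosome 2. The causes were not tested. No paired analysis was possible because the numbers 1 and 2 are array designs with no probe in common and no test was made. Leaving out an array gave no value for the same reason. Signal over background limited Cy5 in the clusters, where 60.1% to 69.2% of probes passed in that dye.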

Other observations

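Outside the clusters, 2 adjoining bins of chromosome 2 were as low as the cluster's bins. The bins from 111000001 to 111500000 and from 111500001 to 112000000 had H3K27me3 medians of -1.61 (198 kept probes) and -1.57 (75 kept probes), and RING1B medians of -0.89 (208 kept probes) and -0.92 (79 kept probes). On chromosome 9, the bin from 75500001 to 76000000 had the lowest H3K27me3 median of the 156 bins, at -1.70 with 24 kept probes, and a RING1B median of -0.86 with 35 kept probes. No gene was assigned to these bins, which were chosen after their values were seen. Only the longest run of receptor genes per chromosome was counted. Whether these bins hold other receptor genes was therefore not examined.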
